A study of Mus musculus with 13 samples.

Results

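Prostaglandins are lipid signals made from arachidonic acid, which phospholipases release from membranes. The cyclooxygenases encoded by Ptgs1 and Ptgs2 convert it to prostaglandin H2, and a set of terminal synthases turns that intermediate into prostaglandin D2, E2 or prostacyclin, each read by its own G protein-coupled receptors on the cell surface. The leptomeninges, the thin membranes that cover the brain, are a well-known site of lipocalin-type prostaglandin D synthase (Ptgds), which is secreted into the cerebrospinal fluid and also binds retinoids and other small lipids.

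The genes described here were a list of 10 prostaglandin synthases and receptors, namely the synthases Ptgs1, Ptgs2, Ptgds, Ptges and Ptgis and the receptors Ptger1, Ptger2, Ptger3, Ptger4 and Ptgfr. They were chosen by name and not by a measured value, though with earlier results of these data known. Of the 10, 9 had a probe set that carries that symbol alone, out of 19938 genes tested, and each of the 9 had 1 such probe set. Ptgs1, the constitutive cyclooxygenase, had none with its name in the probe table used and was not analysed here.

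The samples were cerebral meninges of 13 pups from 1 litter, taken on the day of birth (postnatal day 0, strain C57BL6), and the RNA of each pup was measured on its own Affymetrix Mouse Gene 1.0 ST array. The 4 mutants were Pdgfc-/-; Pdgfra GFP/+, which lack the growth factor PDGF-C in all cells and carry 1 null allele of its receptor, in which GFP takes the place of Pdgfra. The 9 littermate controls pooled pups with the genotypes Pdgfc+/+, Pdgfc+/- and Pdgfc-/- and pups that were Pdgfra GFP/+ on a Pdgfc+/+ or Pdgfc+/- background, and the labels do not say which control had which genotype, so some controls carried part of the alleles of the mutants. Values are PLIER intensities on a linear scale, and differences are of log2(intensity + 16), mutant minus control, so that a gene whose intensity lies near 16 shows a smaller difference than its ratio of intensities. A gene was called as risen or fallen at a limma adjusted p under 0.05 over all genes tested.

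Some facts of the arrays bear on every value. The median intensity of an array ran from 56.0 to 89.7 in mutants and from 44.1 to 89.0 in controls, and the 4 dimmest arrays were controls 6, 3 and 1 and mutant 3. The intensity of Pdgfc, the deleted gene, was 25.7 ± 3.41 in the 4 mutants and 164 ± 86.8 in the 9 controls (mean ± SD), with control 2 at 5.88, below every mutant. Xist and Eif2s3y showed the male pattern in all 4 mutants and in controls 1, 5 and 8, so sex and genotype overlapped in part. The tissue labelled as cerebral meninges had 15 meningeal fibroblast markers, none of them at 0. Their summed intensities were 26391 to 38399 in mutants and 28483 to 39085 in controls. Of the 15, 12 had a difference below 0, and the median difference of the 15 was -0.29, against 0.0043 for all genes. All 12 pan-neuronal markers rose, with summed intensities of 13995 to 17187 in mutants against 1482 to 4190 in controls. In whole tissue, fewer cells of a type and less RNA per cell cannot be told apart.

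Of the 9 genes measured, 4 fell in mutant meninges, none rose and 5 were not called. Ptgfr, the gene of the prostaglandin F receptor, was 3.06-fold lower and Ptgds was 2.76-fold lower, while Ptger3, a prostaglandin E2 receptor gene, and Ptgis, the prostacyclin synthase gene, were 1.53-fold and 1.48-fold lower. Over all genes tested, 6.31% fell and 8.58% rose. The median difference of the 9 genes was -0.57, against 0.0043 for all genes tested. All 5 genes with an unadjusted limma p under 0.05 (the 4 called and Ptgs2) had lower means in mutants, and the count of genes that rose was also 0 with each of the other tests run. In 3 of the 9, every mutant lay below every control, a pattern seen in 3.04% of all genes tested.

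**Figure D1:**
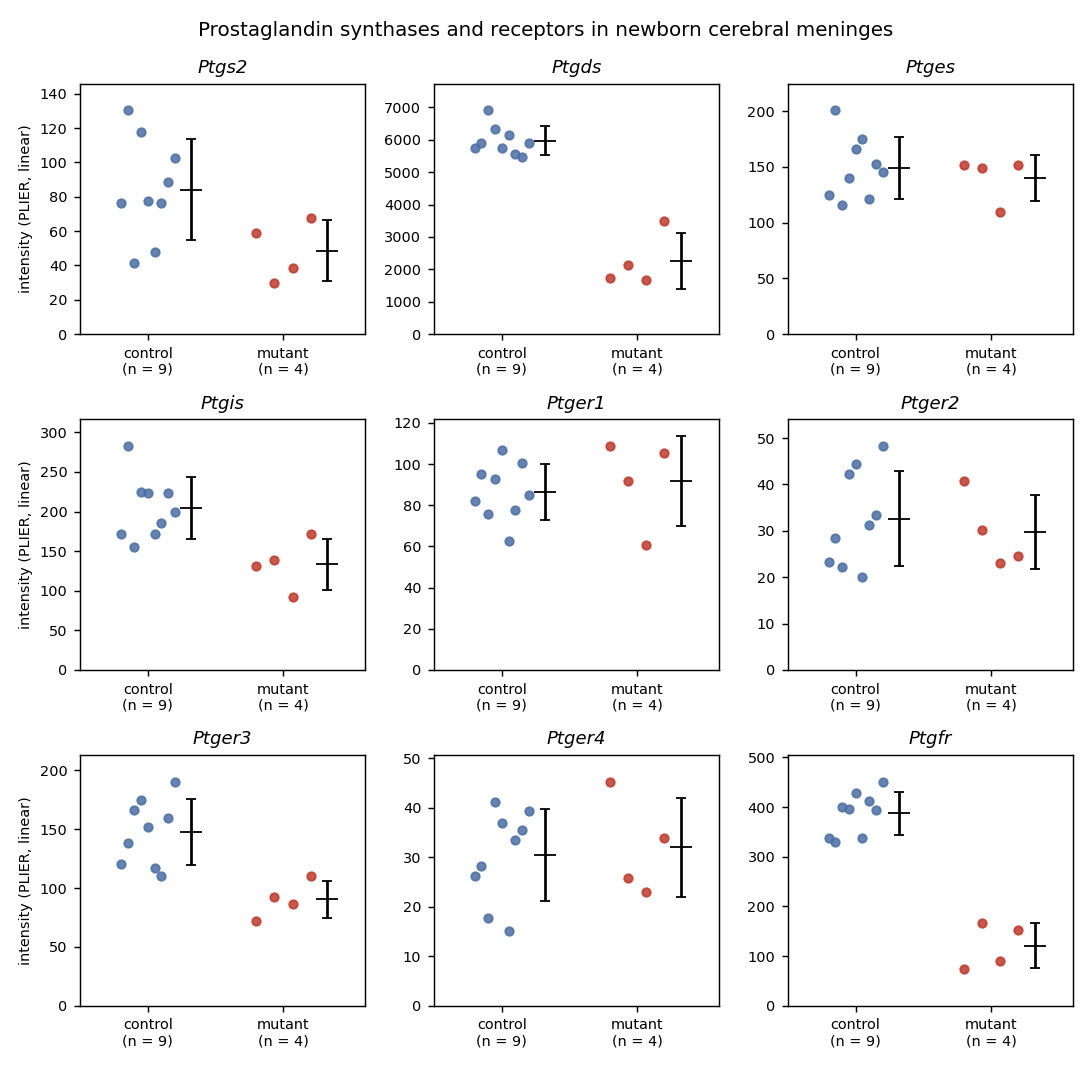
Intensity on a linear scale (y axis) of the 9 measured synthase and receptor genes in each of 9 control (blue) and 4 mutant (red) meninges; black bars give the mean and SD of each group. For Ptgds, Ptger3 and Ptgfr every mutant lies below every control, and for Ptges, Ptger1, Ptger2 and Ptger4 the groups lie over each other.

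The promoters of the genes that fell were read from RefSeq (build GRCm38.p6), to show the sequence next to 3 of the falling genes. The table used held a start for 8 of the 10 listed genes, and Ptgis and Ptger1 were not among them. Bases are counted back from the start site in the table, with the base before it as -1. Each stretch is given 5′ to 3′ on the strand of the gene, with matches to a GC box (GGGCGG, or CCGCCC on the other strand) or to the AP-1 motif (TGANTCA, where N is any base) in capitals. Ptgds is shown by the 30 bases around its AP-1 match (chr2:25469766-25469795, minus strand), since its whole window of 250 bases lies inside the span of the RefSeq gene. For Ptger3 (chr3:157566626-157566820, plus strand) the stretch ends where the span of the gene begins, which cuts the last letter from the second GC box. For Ptgfr (chr3:151837529-151837778, minus strand) all 250 bases lie outside the gene.
Ptgds: gaggccaagccTGACTCAtaaatagggggt
Ptger3: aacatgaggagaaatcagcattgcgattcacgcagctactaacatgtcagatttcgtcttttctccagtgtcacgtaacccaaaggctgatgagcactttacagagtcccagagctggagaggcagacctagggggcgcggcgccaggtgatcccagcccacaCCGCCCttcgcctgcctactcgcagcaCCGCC
Ptgfr: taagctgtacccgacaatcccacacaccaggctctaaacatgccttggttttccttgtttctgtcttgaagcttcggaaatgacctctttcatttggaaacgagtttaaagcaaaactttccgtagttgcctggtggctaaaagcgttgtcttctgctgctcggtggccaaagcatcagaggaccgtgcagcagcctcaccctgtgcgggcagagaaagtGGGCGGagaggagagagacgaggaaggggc

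The 250 bases before the start were searched on both strands for 6 motifs. The window of Ptgds held 1 AP-1 match, at -35 to -29, a motif found in 6.8% of 32817 promoter windows of the same length, and none of the other 7 genes with a window held one. Ptgfr had 1 GC box, at -30 to -25, and Ptger3 had 3 over its whole window, a motif found in 32.7% of windows. It was also matched in Ptgs2 (1), Ptges (2) and Ptger4 (4), which did not pass the test, and it was absent from Ptgds. None of the 8 windows matched TATAAA (12.4% of all windows) or the forkhead motif TGTTTAC (3.2%). CCAAT (33.8% of all windows) was matched in Ptger2 and Ptger4, which did not pass the test, and CANNTG (66.2%) in every window but that of Ptger4. Of the 6 motifs, CANNTG was the 1 matched in all 3 of the falling genes with a window. These are matches of letters, and no binding was measured.

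Among the synthases, Ptgds had intensities of 1730, 2122, 1661 and 3502 in mutants 1 to 4. In the 9 controls it ran from 5464 to 6907, with a median of 5893. The highest mutant, mutant 4, thus stayed well below the lowest control. The difference was -1.46 (standard error 0.16, 95% interval -1.80 to -1.13, adjusted p = 1.01e-06), and an exact two-sided permutation of the group labels, which has 715 possible splits, returned p = 0.0014, the smallest it can give. Controls were close to each other, with a coefficient of variation (SD over mean) of 7.44%, while the mutants spread by 38.0%. With the variances of the groups taken as unequal, gene by gene, the adjusted p was 0.0855 and the call was lost. Over all genes tested, 400 fell under that setting, against 1258 in the main test. Ptgds is itself used as a marker of arachnoid and other meningeal cells. Of 10 arachnoid barrier markers 4 fell (Dpp4, Cdh1, Msx1 and Alcam) and none rose, with summed intensities of 4397 to 6865 in mutants and 6662 to 8561 in controls, and of 15 fibroblast markers 3 fell (Foxc2, Crabp2 and Islr) and 2 rose (Col1a1 and Col3a1). Their part in the fall of Ptgds was not tested.

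Ptgis, which makes prostacyclin and is best known from vessel walls, had intensities of 131, 139, 92.3 and 171 in the mutants. In controls it ran from 155 to 282, with a median of 200. Mutant 4 lay inside the range of the controls and the other 3 mutants below it. The difference was -0.57 (standard error 0.16, adjusted p = 0.0187; exact permutation test, p = 0.0042). This call was lost without mutant 3, the lowest (difference -0.42, adjusted p = 0.106), and with unequal variances (0.191). It was also lost with the Xist level as a covariate (-0.59, 0.113) and with each array centred on the fibroblast markers (-0.34, 0.0686). Over all genes tested, 605 fell with the Xist covariate and 777 with fibroblast centring, against 1258 in the main test. Of 12 endothelial markers 7 fell and none rose, with summed intensities of 5782 to 7549 in mutants and 7995 to 16870 in controls, and of 10 mural markers none was called in either direction. Their part in the fall of Ptgis was not tested.

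Ptgs2, the inducible cyclooxygenase, had intensities of 59.1, 29.6, 38.3 and 67.4 in mutants and 41.2 to 130 in controls, with a median of 77.6. The groups overlapped, since controls 3 and 6 lay among the mutants. The difference was -0.62 (standard error 0.22, adjusted p = 0.0763; exact permutation test, p = 0.0476), which did not pass the threshold over all genes. Controls 3 and 6 are also the arrays of the lowest medians. Ptgs2 passed the threshold, as a fall, without control 3 (-0.71, adjusted p = 0.0222) or control 6 (-0.69, 0.0239), with array quality weights (-0.86, 0.00232), without the 4 dimmest arrays (-0.78, 0.00197), with quantile normalization (-0.69, 0.00106) and with each array centred on its median (-0.71, 0.00158). Centred on reference genes (-0.49) or on the fibroblast markers (-0.39) it did not. Falls over all genes tested numbered 1258 in the main test, 2023 with array weights, 3617 with quantile normalization and 2862 centred on the array median. Without control 3, control 6 or the 4 dimmest arrays they numbered 1423, 1244 and 1242. Centred on reference genes or on fibroblast markers they numbered 1071 and 777.

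Ptges, the inducible prostaglandin E synthase that works downstream of Ptgs2, had intensities of 151, 149, 109 and 151 in mutants and 116 to 201 in controls. The mutants lay inside or just below the range of the controls. The difference was -0.07, with a 95% interval of -0.38 to 0.23 (adjusted p = 0.940), so these arrays leave room for a modest change in either direction. Its sign turned to positive with each array centred on reference genes (0.06) or fibroblast markers (0.16).

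Among the receptors, Ptgfr had intensities of 73.7, 167, 90.8 and 152 in the mutants. In controls it ran from 330 to 450, with a median of 395. No mutant came near the lowest control. The difference was -1.61 (standard error 0.17, 95% interval -1.97 to -1.26, adjusted p = 4.93e-07; exact permutation test, p = 0.0014). As for Ptgds, the controls were close to each other (coefficient of variation 11%) and the mutants were not (37.7%), and with unequal variances the adjusted p was 0.0682. The order of the mutants was not that of Ptgds: mutant 2 was highest for Ptgfr and mutant 4 for Ptgds.

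Ptger3 encodes a prostaglandin E2 receptor that couples to inhibition of cyclic AMP. Its intensities were 71.7, 92.6, 86.7 and 110.4 in mutants and 110.6 to 190.0 in controls, with a median of 151. The groups did not overlap, but mutant 4 and control 7 were almost equal. The difference was -0.62 (standard error 0.15, adjusted p = 0.00644; exact permutation test, p = 0.0014). Ptger3 was the 1 gene of the 9 that passed the test with unequal variances (adjusted p = 0.0442). The setting that ended its call was the Xist level as a covariate (difference -0.56, adjusted p = 0.104). Over all genes tested, 605 fell with that covariate, against 1258 in the main test.

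The other E2 receptors did not pass the test. Ptger1, which couples to calcium release, had intensities of 60.9 to 109 in mutants and 62.8 to 107 in controls (difference 0.06, 95% interval -0.25 to 0.37, adjusted p = 0.961). Ptger2 and Ptger4, which raise cyclic AMP, were dim on these arrays, among the lowest 25% of genes. Ptger2 had intensities of 23.1 to 40.8 in mutants and 20.1 to 48.2 in controls (difference -0.08, interval -0.43 to 0.27), and Ptger4 of 23.1 to 45.2 in mutants and 15.0 to 41.1 in controls (difference 0.06, interval -0.31 to 0.42). For all 3 the groups lay over each other, and the sign of the difference turned with the scaling of the arrays. Near the constant of 16 the scale compresses differences, so a change of these dim genes would be measured as smaller than it is.

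The difference of each gene was compared over 17 other settings of the processing, apart from leaving out single mice. Ptgfr and Ptgds fell in all of them and were called in all but the test with unequal variances. Leaving out any 1 of the 13 mice left Ptgds between -1.70 and -1.34, Ptgfr between -1.78 and -1.43 and Ptger3 between -0.70 and -0.53, with all 3 called each time.

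**Figure D2:**
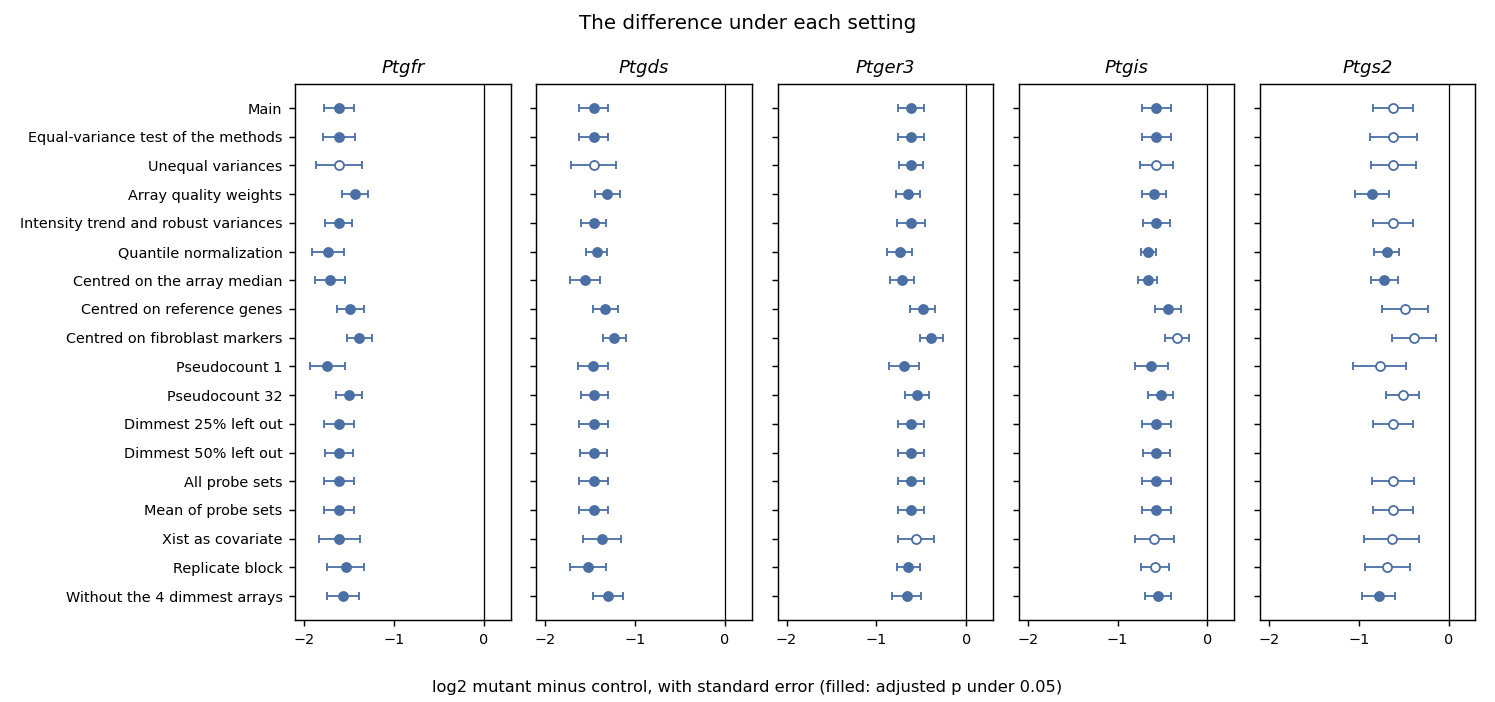
Difference of mean log2 values, mutant minus control (x axis, with standard error), of the 4 genes that fell and of Ptgs2 under the main setting and each alternative (y axis); filled points have an adjusted p under 0.05. Ptgfr and Ptgds stay between -1.74 and -1.23 and are open with unequal variances alone, while Ptgs2 is filled under 4 of the settings drawn and has no point with the dimmest 50% of genes left out.

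Genes that varied from mouse to mouse like those that fell were looked for by correlation over the 13 mice, after centring each array on its median and removing the group means, among 9968 brighter genes. These are the highest of many and share the arrays, so they are given as a description. Centring also subtracts the same array median from every gene, which can itself raise r between genes that do not follow that median. Array medians ran from 44.1 to 89.0 in controls, while Ptgds had a coefficient of variation of 7.44% there and 38.0% in mutants. How much of each r comes from the centring or from the spread of the mutants was not tested. Ptgds was most like Slc20a2 (r = 0.97), Slc6a13 (0.97) and Slc27a1 (0.95), transporters of phosphate, of GABA and taurine, and of fatty acids, of which Slc6a13 (intensity 2043 in mutants against 4139 in controls) and Slc27a1 (223 against 459) also fell. Ptgfr was most like Cmbl (0.91), Sema3d (0.91) and Kcnj13 (0.90), of which Cmbl (411 against 1498) and Kcnj13, a potassium channel gene (219 against 1057), also fell. Ptgis was most like Spef1 (0.89), Prkg1 (0.85) and Nkd1 (0.85), and Ptger3 like Nqo1 (0.90), Mir568 (0.89) and Sox2 (0.89). Of these 6, none fell, and Spef1 and Sox2 rose.

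The rest of the pathway was read from lists of 36 further genes, of which 33 had a probe set. Of the 33, 12 fell, 1 rose and 20 were not called, with a median difference of -0.26, against 6.31% of all genes tested that fell and 8.58% that rose. In 6 of them every mutant lay below every control, as in 3.04% of all genes tested. Arachidonate release, the terminal synthases and the removal of prostaglandins each held genes that fell. None of the 5 further genes named for prostanoid receptors (Ptgdr, Ptgdr2, Ptgir, Tbxa2r and Ptgfrn) was called.

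**Figure D3:**
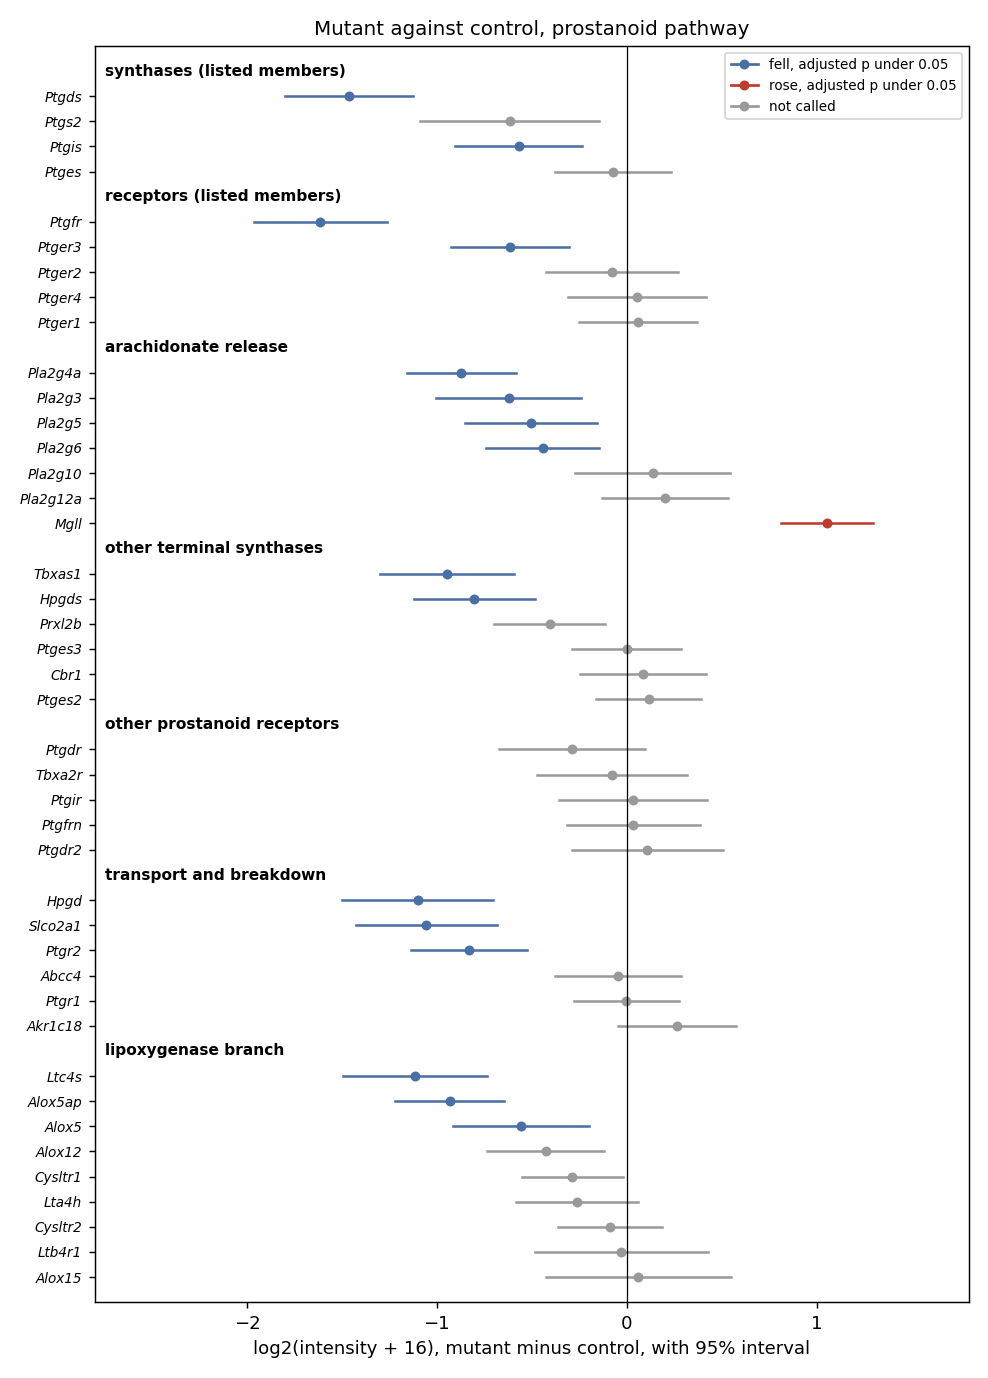
Difference of mean log2(intensity + 16), mutant minus control (x axis, with 95% interval), of the 9 listed genes and of 33 further genes of the pathway, grouped by role; blue fell, red rose and grey was not called. Mgll is the 1 gene that rose, at 1.05, and the further genes named for prostanoid receptors all have intervals that include 0.

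Of the 7 genes of arachidonate release, 4 fell and 1 rose. Pla2g4a, the cytosolic phospholipase A2 that feeds the cyclooxygenases, had intensities of 81.7, 124, 103 and 114 in mutants and 165 to 254 in controls. The groups did not overlap, and the level was 1.83-fold lower (adjusted p = 1.04e-04). Mgll, monoacylglycerol lipase, which frees arachidonate from an endocannabinoid in brain, went the other way: 104, 120, 87.6 and 121 in mutants against 38.9 to 49.7 in controls, 2.08-fold higher (adjusted p = 1.03e-06), again without overlap. This was in the same mutants in which the 12 pan-neuronal markers rose, and their part in it was not tested. The phospholipase genes Pla2g3 (difference -0.62, adjusted p = 0.0250), Pla2g5 (-0.51, 0.0455) and Pla2g6 (-0.44, 0.0418) fell with overlapping groups. Each of the 3 lost its call under the Xist covariate, unequal variances, centring on reference genes or on fibroblast markers, and without mutant 2 or mutant 3. Pla2g3 and Pla2g5 also lost it with the equal-variance test of the study's methods (adjusted p = 0.0634 and 0.0803). Over all alternatives run, left-out mice included, the call was lost under 8 for Pla2g3, 17 for Pla2g5 and 15 for Pla2g6. Pla2g10 and Pla2g12a were not called (0.14 and 0.20).

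Of 6 other terminal synthase genes, 2 fell. Hpgds, the second prostaglandin D synthase, found in mast cells and macrophages, had intensities of 125, 234, 158 and 196 in mutants and 248 to 378 in controls, with no overlap (1.74-fold lower, adjusted p = 7.22e-04). Tbxas1, thromboxane synthase, known from platelets and macrophages, had 54.2, 87.5, 67.6 and 111 in mutants and 104 to 209 in controls (1.93-fold lower, adjusted p = 3.95e-04). Mutant 4 lay above control 3 and the other mutants below all controls. Both were lost with unequal variances (adjusted p = 0.123 and 0.0814). Ptges2, Ptges3, Cbr1 and Prxl2b were not called, with differences from -0.40 to 0.11.

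Of the 6 genes of transport and breakdown, 3 fell, and in all 3 every mutant lay below every control. Slco2a1, the transporter that takes prostaglandins up into cells, had intensities of 259, 170, 220 and 311 in mutants and 402 to 756 in controls (2.08-fold lower, adjusted p = 2.09e-04). Hpgd, the dehydrogenase that inactivates prostaglandins once inside, had 65.2, 150, 96.5 and 164 in mutants and 206 to 338 in controls (2.14-fold lower, adjusted p = 2.78e-04). Ptgr2, a reductase of the next step, had 103, 187, 175 and 217 in mutants and 281 to 330 in controls (1.78-fold lower, adjusted p = 3.51e-04). So some genes of making, sensing and removing prostaglandins were among those that fell, though most receptor genes were not called. The 5 listed receptor genes had a median difference of -0.078, and the 5 further genes named for receptors 0.034 (all genes tested, 0.0043). Abcc4, an exporter, Ptgr1 and Akr1c18 were not called, with differences from -0.05 to 0.27. Hpgd and Ptgr2 lost their calls with unequal variances (0.151 and 0.183), and Slco2a1 kept its call under every setting run.

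The lipoxygenase branch, which makes leukotrienes from the same arachidonate, held 9 measured genes, of which 3 fell. Alox5ap, the activating protein of 5-lipoxygenase, had intensities of 127, 154, 128 and 201 in mutants and 246 to 350 in controls (1.91-fold lower, adjusted p = 4.38e-05), with no overlap. Ltc4s, leukotriene C4 synthase, had 92.0, 101, 76.1 and 198 in mutants and 189 to 341 in controls (2.16-fold lower, adjusted p = 1.49e-04), with mutant 4 above control 3, and was lost with unequal variances (0.153). Alox5 itself fell with overlapping groups (difference -0.56, adjusted p = 0.0319) and lost its call under 14 of the 29 alternatives run, left-out mice included. The other 6 genes ran from -0.43 to 0.06 and were not called.

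Several of these genes are used by macrophages or mast cells, and markers of those cells also differed between the groups. Of 14 macrophage and microglia markers 12 fell and none rose, with summed intensities of 4309 to 7745 in mutants and 9883 to 13310 in controls and none at 0. Of 8 mast cell markers 2 fell (Cpa3 and Cma1, none with each array centred on reference genes or fibroblast markers). The mast cell sums ran from 901 to 1203 in mutants and 1055 to 1551 in controls. Kit, which was not called, was by far the brightest of the 8, with means of 779 in mutants and 907 in controls, and weighs most in these sums. Of 6 platelet markers 1 fell (Pf4), with sums of 647 to 951 in mutants and 1493 to 2069 in controls that moved with Pf4. The other 5 were not called, and the median difference of the 6 was 0.036. The part of these cells in the falls of Hpgds, Tbxas1, Alox5, Alox5ap and Ltc4s was not tested. Of 9 markers of the choroid plexus, a tissue that also makes Ptgds, 3 fell (Kl, Kcnj13 and Cldn2) and 1 rose (Clic6). The median difference of the 9 was -0.063, with sums of 1161 to 3935 in mutants and 1913 to 2413 in controls. Kcnj13 had the highest mean of the 9 in controls (1057, against 219 in mutants). Ttr stood at 2841 in mutant 1 against 55.3 to 168 in all other mice, so the sums depended strongly on these 2 genes. The part of the choroid plexus in the fall of Ptgds was not tested. No oligodendrocyte marker but Cnp fell among 7, and of 4 erythroid markers none was called.

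**Figure D4:**
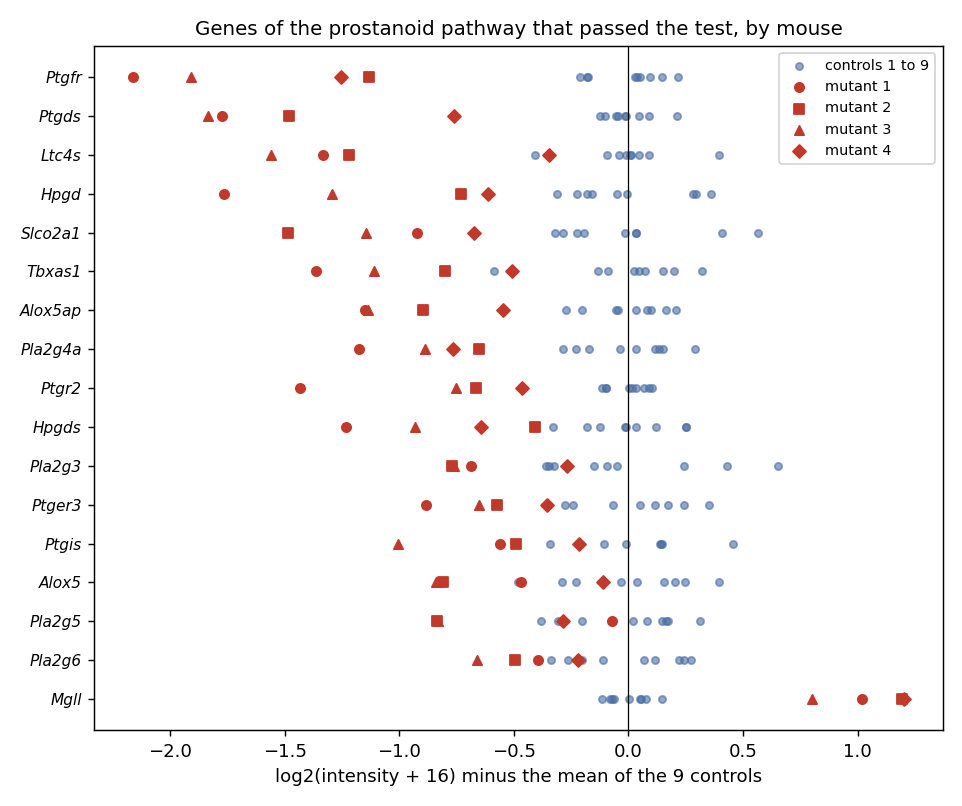
Value of each mouse as log2(intensity + 16) minus the mean of the 9 controls (x axis) for the 4 listed genes and 13 further pathway genes that passed the test (y axis), with controls as blue dots and a red symbol for each mutant. For 10 of the 17 genes no mutant symbol lies among the controls, mutant 4 is the closest mutant to the controls in most of the genes that fell, and mutants 1 and 3 lie farthest from them for Ptgds, Ptgfr and Hpgd.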

How the data were processed

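The authors summarised Affymetrix Mouse Gene 1.0 ST arrays with PLIER, a model of probe brightness, and deposited 1 intensity per probe set and mouse on a linear scale; its version and any scaling between arrays are not given in the sources used here, and arrays have no read depth, so the number of mice limits precision. Of 35557 probe sets, 21789 carry 1 gene symbol in the platform table; the brightest of each gene gave 19938 genes. Values were tested as log2(intensity + 16) with limma 3.58.1 under R 4.3.3 (two-sided; lmFit, then eBayes), 4 mutants against 9 controls, p-values were adjusted over all genes by Benjamini-Hochberg, and each listed gene was also tested by an exact permutation test. The listed genes, the pathway and marker lists and the tests were chosen with earlier results of these data known. Named are all listed genes, every pathway gene past the threshold and the 3 genes most correlated with each listed gene that fell. Tested on simulated data in which 200 of the genes differed, this fit found 26% of rises of 0.5 (log2), 78% of rises of 1 and 86% of falls of 1, and called 12 of the 19738 others. Alternatives covered the test, variance model, array weights, normalization, constant, filter, probe sets, Xist level, replicate number and left-out arrays; the counts of pathway genes were planned under the 4 normalizations, and running them under the other alternatives was added after the data were seen. Promoter windows came from RefSeq tables of GRCm38.p6, and figures from matplotlib 3.10.9 in Python 3.11.15. The replicate numbers did not pair the mice.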

Additional observations from a re-analysis of the deposited data

Results flagged for a closer look

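Within each group, the highest and lowest mouse was compared with its nearest neighbour for the 9 listed genes and the 13 pathway genes that passed the test, 44 groups in all. Chance marks about 1 group in 20, and 2 were marked. Ptges stood at 109 in mutant 3, with the next mutant at 149, so the gap made up most of the spread of that group. Mutant 3 was also the dimmest array among the mutants, at a median of 56.0. Pla2g3 stood at 54.8 in mutant 4, with the next mutant at 37.0.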

How the results depend on the processing

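The number of listed genes that fell was 4. It was 1 with unequal variances (Ptger3), where falls over all genes went from 1258 to 400. It was 2 with the Xist level as a covariate, with 605 over all genes. It was also 2 with the threshold of the study's methods (fold over 2 and an unadjusted p), and 3 to 5 without single mice. None rose under any setting. Of the pathway genes 12 fell, 3 with unequal variances and 8 to 14 without single mice. With quantile normalization 16 fell, where the falls over all 19938 genes went from 1258 to 3617. Median centring gave 15 falls, with 2862 over all genes. Fibroblast markers as the centre lowered the count to 8, with 777 over all genes. Reference genes as the centre also gave 8, with 1071 over all genes. The number of pathway genes that rose was 1. It was 3 with each array centred on the fibroblast markers, where the rises over all genes went from 1710 to 4597. It was 0 with the dimmest 50% of genes left out, where Mgll was not among the genes tested. The median difference of all genes moved to 0.13 with reference genes as the centre, 0.23 with fibroblast markers and -0.11 with array weights, and other differences are to be read against these shifts. Signs turned in genes that were not called. Ptger1 was -0.034 with array weights, -0.023 with quantile normalization, -0.040 centred on the array median and -0.086 with the Xist covariate, and -0.021 to 0.21 without single mice. Ptger4 was -0.16 with array weights, -0.042 centred on the array median, -0.055 with the Xist covariate and -0.035 without the 4 dimmest arrays, and -0.068 to 0.15 without single mice. With each array centred on reference genes or on fibroblast markers Ptges was 0.060 and 0.16, and it was -0.11 to 0.032 without single mice. Ptger2 was 0.052 and 0.15 under these 2 settings. The cause was not tested. Mice of the same replicate number did not vary together (correlations of -0.34, 0.16, 0.31 and -0.09). A shared number was thus not taken as a pair. A block by replicate number rests on mutants and controls 1 to 4. With this block 3 listed genes and 9 pathway genes fell, with 545 falls over all genes. Ptgis was lost (-0.58, adjusted p = 0.0559) and Ptger2 was 0.024.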
